A study of Mus musculus with 9 samples.

Results

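Transcription factors that set the fate of myeloid cells were followed in 9 expression arrays of sorted, vector-carrying mouse bone marrow cells. The genes considered were Cebpa, Cebpb, Cebpd, Cebpe, Cebpg, Gfi1, Spi1, Irf8 and Runx1, and each was represented by the probe set that carries its symbol alone. Of these 9 genes, 8 had such a probe set among the 17731 genes tested, and Cebpe was not analysed here. Among the deposited values each of the 8 had a single probe set, as did 17649 of the 17731 genes. No choice between probe sets was therefore made here. The submitters' processing notes name no selection of probe sets, and whether others for these genes were left out before deposit was not tested.

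The series compared 3 groups of 3 arrays, 1 array per RNA sample. Per the labels, all 3 groups came from C57BL6 bone marrow immortalised with HoxA9, infected with a retrovirus and placed in irradiated syngeneic mice, from which GFP-positive marrow cells were sorted 4 weeks later. The retrovirus of the CTL group held EGFP alone, that of IDH1wt added wild-type IDH1 in pSF91, and that of IDH1mut added a mutant form of IDH1. The enzyme encoded by IDH1 makes 2-oxoglutarate from isocitrate in the cytosol, and mutants found in leukaemia make 2-hydroxyglutarate. The labels name neither the IDH1 mutation nor the species of the insert, and do not say whether arrays of a group came from separate mice. The p-values therefore measure the spread between these samples, which may be technical, and retroviral integration sites and clonality were not analysed here. HOXA9, a homeobox protein that blocks myeloid maturation when held high, was present in all 3 groups by design, so CTL is not normal marrow.

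Blood stem cells become neutrophils or monocytes under a small set of DNA-binding proteins. PU.1, encoded by Spi1, and RUNX1 open the myeloid program, and C/EBP-alpha carries progenitors into the granulocyte and monocyte branch. GFI1, a repressor, then favours neutrophils, whereas IRF8 favours monocytes and dendritic cells, and other C/EBP proteins take over as cells mature or respond to infection.

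In IDH1mut against CTL, Cebpa, Irf8 and Gfi1 fell and Cebpg rose. Irf8 was 1.70-fold lower, Cebpa 1.53-fold lower and Gfi1 1.39-fold lower, while Cebpg was 1.77-fold higher. Cebpb, Cebpd, Spi1 and Runx1 did not pass the test. Of the 8 members 4 changed, against 20.7% of all 17731 genes (limma, Benjamini-Hochberg adjusted p under 0.05). By direction, 1 of 8 rose, against 10.1% of all genes, and 3 of 8 fell, against 10.6%. At an unadjusted p under 0.05 the count was 5 of 8, against 32.3% of all genes. In IDH1wt against CTL 0 of 8 passed with limma, where 2.33% of all genes did (4 of 8 and 17% at an unadjusted p under 0.05). In IDH1mut against IDH1wt Cebpa and Irf8 fell. No member moved by 2-fold or more in any of the 3 comparisons.

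**Figure D1:**
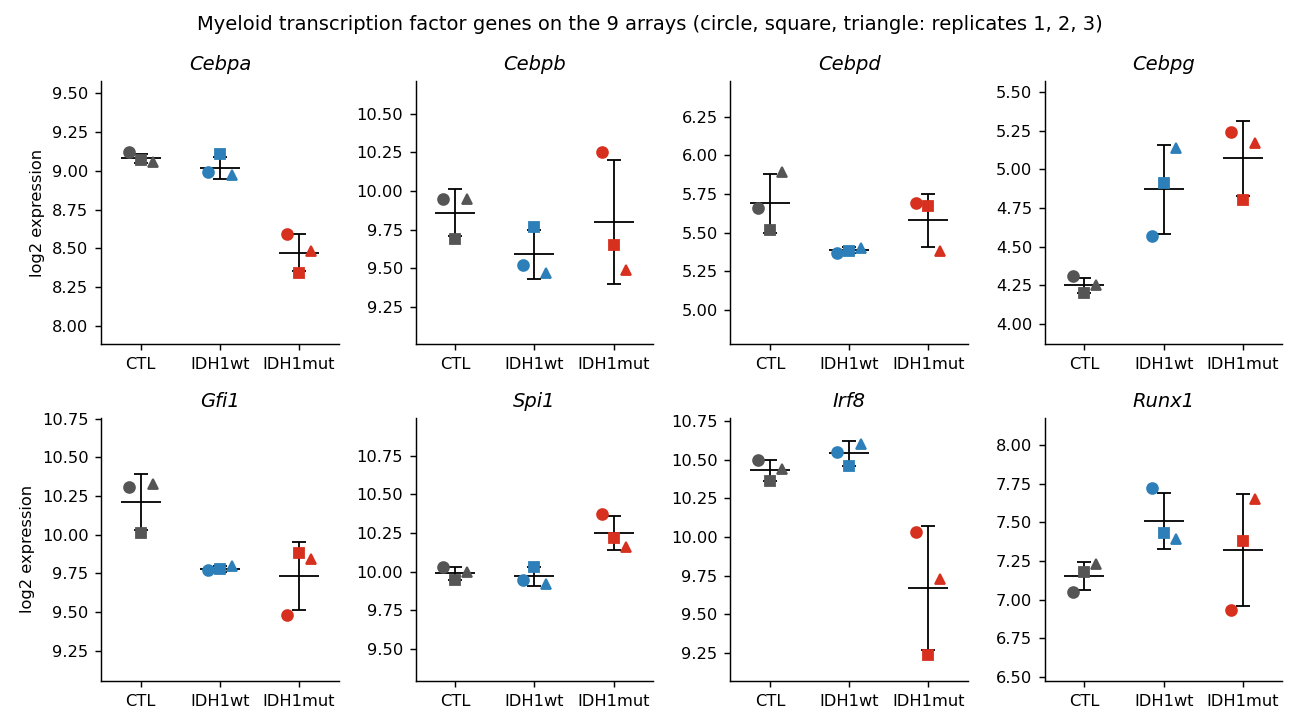
Log2 expression of the 8 myeloid transcription factor genes on each array (y axis, log2 units; every panel spans the same height) for CTL, IDH1wt and IDH1mut (x axis). Circles, squares and triangles are replicates 1, 2 and 3, long bars are group means and whiskers are SD (n = 3). Cebpa and Irf8 are low on the 3 IDH1mut arrays alone, whereas Cebpg is high and Gfi1 low on the arrays of both IDH1 vectors.

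Values are log2 expression after RMA. A difference of group means on that scale is called a log2 fold change here, is given ± its moderated standard error (SE), and carries an adjusted p from 1 limma fit to all 9 arrays. "Rose", "fell" and "changed" mark an adjusted p under 0.05. Array medians lay between 4.65 and 4.72, and low values are compressed by the method. The array measures bulk RNA, so fewer cells of a type and less RNA per cell cannot be told apart for any gene below.

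The sorted cells carried general leukocyte and myeloid markers. All 10 measured genes of that list, such as Ptprc (the pan-leukocyte surface phosphatase CD45) and Itgam (CD11b), had means over the arrays above the median gene mean of 4.94. Their mean log2 value was 10.04 to 10.08 on CTL, 10.13 to 10.17 on IDH1wt and 10.52 to 10.58 on IDH1mut arrays, and 7 of 10 rose and 1 fell in IDH1mut against CTL. Markers of other cells also differed. The mean over 10 erythroid genes was 6.72 to 6.87 on CTL, 6.38 to 8.07 on IDH1wt and 8.02 to 8.33 on IDH1mut arrays, and 9 of 10 rose in IDH1mut against CTL (4 with an intensity trend and robust variances, 1 in an unmoderated test). The mean over 11 mast cell, basophil and eosinophil genes was 7.22 to 7.35 on CTL, 7.03 to 7.86 on IDH1wt and 6.34 to 6.77 on IDH1mut arrays, and 5 of 11 fell. In IDH1mut against CTL 3 of 10 B cell genes (Dntt, Vpreb1 and Igll1) and 2 of 8 T and NK cell genes (Cd3d and Cd3g) rose, and 0 fell. These counts ran from 1 to 3 and from 0 to 2 on leaving out single arrays. Of 8 megakaryocyte genes 0 rose and 1 fell, and of 11 stromal and endothelial genes 1 rose and 1 fell. The part of these cell types in the results on the myeloid factors was not tested.

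Cebpa encodes C/EBP-alpha, the factor without which granulocyte and monocyte progenitors do not form. It read 9.12, 9.07 and 9.06 on CTL replicates 1 to 3, 8.99, 9.11 and 8.97 on IDH1wt, and 8.59, 8.34 and 8.48 on IDH1mut. The IDH1mut arrays lay below all 6 others, and those of CTL and IDH1wt overlapped. The log2 fold change was -0.61 ± 0.09 for IDH1mut relative to CTL (adjusted p = 0.00103). Relative to IDH1wt it was -0.55 ± 0.09 (adjusted p = 0.00344). For IDH1wt relative to CTL it was -0.06 ± 0.09, with a 95% interval from -0.27 to 0.15 (adjusted p = 0.799). Both calls of Cebpa held whichever single array was left out, at values of -0.67 to -0.55 against CTL and -0.61 to -0.49 against IDH1wt over the alternatives run.

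Irf8 encodes an interferon regulatory factor that works beside PU.1 and steers progenitors to monocytes and dendritic cells and away from neutrophils. It read 10.50, 10.36 and 10.44 on CTL, 10.55, 10.46 and 10.60 on IDH1wt, and 10.03, 9.24 and 9.73 on IDH1mut. As for Cebpa, the IDH1mut arrays lay below all 6 others, and those of CTL and IDH1wt overlapped. The IDH1mut arrays of Irf8 spread widely, at an SD of 0.40 against 0.07 in CTL. Irf8 fell by 0.77 ± 0.16 on the log2 scale relative to CTL (adjusted p = 0.00633) and by 0.87 ± 0.16 relative to IDH1wt (adjusted p = 0.00541). The smallest fall in any alternative run was that without IDH1mut replicate 2, the lowest array, at -0.55 against CTL. IDH1wt and CTL differed by 0.10 ± 0.16 (95% interval -0.25 to 0.46, adjusted p = 0.798).

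The windows before the outermost annotated starts of Cebpa and Irf8 are shown because these were the members lower in IDH1mut than in both other groups. Both come from the RefSeq promoter table of build GRCm38.p6 and run 5′ to 3′ along the gene's strand over the 250 bases before the start. Capitals mark every match, on either strand, to 8 motifs: TATAAA (the box near many starts), CCAAT (bound by NF-Y), TTGCGCAA (the C/EBP palindrome), GAGGAA (bound by PU.1), TGTGGT (bound by RUNX proteins), AATCAC (the GFI1 core), TTCNNNGAA (the palindrome of STAT factors) and the composite ETS and IRF element. Cebpa lies at chr7:35119043-35119292 on the plus strand and Irf8 at chr8:120736108-120736357 on the plus strand.
Cebpa: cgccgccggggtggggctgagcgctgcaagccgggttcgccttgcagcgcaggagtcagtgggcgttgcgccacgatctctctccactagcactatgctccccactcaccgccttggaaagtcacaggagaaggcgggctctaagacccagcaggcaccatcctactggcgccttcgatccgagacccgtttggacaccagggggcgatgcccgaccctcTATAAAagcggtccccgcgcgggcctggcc
Irf8: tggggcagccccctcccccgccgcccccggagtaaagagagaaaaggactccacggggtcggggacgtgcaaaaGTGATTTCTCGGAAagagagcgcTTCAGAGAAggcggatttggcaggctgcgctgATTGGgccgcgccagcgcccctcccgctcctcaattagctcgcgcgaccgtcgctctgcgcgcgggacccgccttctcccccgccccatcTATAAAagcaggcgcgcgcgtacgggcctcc
Both windows hold 1 TATAAA, beginning 30 bases before the start in Cebpa and 31 bases before it in Irf8, and 12.4% of the 32851 windows of this length in the table hold 1 or more. The Irf8 window also has 2 matches to TTCNNNGAA (7.02% of windows have any), 1 CCAAT box on the opposite strand (33.8%) and 1 GFI1 core on the opposite strand (9.14%), which overlaps a TTCNNNGAA match. RefSeq has a second, inner start for Irf8, and the window before it, not printed here, had no match to the motifs. These matches are letters in a reference sequence, and binding was not measured.

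Gfi1 encodes a zinc finger repressor needed to make neutrophils. Its values were 10.31, 10.01 and 10.33 on CTL, 9.77, 9.78 and 9.80 on IDH1wt, and 9.48, 9.88 and 9.84 on IDH1mut. All 6 arrays with an IDH1 vector lay below the 3 CTL arrays, and the arrays of the 2 IDH1 vectors overlapped. Gfi1 fell by 0.48 ± 0.13 in IDH1mut against CTL (adjusted p = 0.0193). Leaving out CTL replicate 1 raised the adjusted p of Gfi1 to 0.0789, leaving out CTL replicate 3 raised it to 0.0758 and leaving out IDH1mut replicate 1 raised it to 0.0607, so that the call did not hold. It did not hold in the unmoderated test either (adjusted p = 0.0622). In IDH1wt against CTL the difference was -0.43 ± 0.13, with an interval from -0.71 to -0.15, and did not pass (adjusted p = 0.108). Between the IDH1 vectors it was -0.05 ± 0.13 (interval -0.33 to 0.23, adjusted p = 0.853). The 2 differences from CTL share the same 3 CTL arrays. The RefSeq window before the outermost start of Gfi1 had no match to these motifs.

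Cebpg encodes C/EBP-gamma, a small C/EBP protein that lacks a domain to activate genes and pairs with other C/EBP and ATF4-type proteins. Cebpg read 4.31, 4.20 and 4.25 on CTL, 4.57, 4.91 and 5.14 on IDH1wt, and 5.24, 4.80 and 5.17 on IDH1mut. The 3 CTL arrays were the lowest of the 9 and the IDH1 vectors overlapped. Levels this close to the array medians are near the low end of the scale, where RMA can understate folds. Cebpg rose by 0.82 ± 0.15 in IDH1mut against CTL (adjusted p = 0.00308), a call that held without any single array. It was higher by 0.62 ± 0.15 in IDH1wt against CTL (interval 0.29 to 0.96), just short of the threshold (adjusted p = 0.0593). Between the IDH1 vectors the difference was 0.20 ± 0.15 (interval -0.14 to 0.53, adjusted p = 0.46).

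Cebpg and Cebpa are neighbours on mouse chromosome 7. RefSeq places 1 gene between them, the long noncoding RNA Gm35611, and 0 protein-coding genes. The pair moved in opposite directions in IDH1mut against CTL. The window before Cebpg is shown for comparison with that of Cebpa, at chr7:35056567-35056816 on the minus strand of GRCm38.p6, with the same motifs in capitals.
Cebpg: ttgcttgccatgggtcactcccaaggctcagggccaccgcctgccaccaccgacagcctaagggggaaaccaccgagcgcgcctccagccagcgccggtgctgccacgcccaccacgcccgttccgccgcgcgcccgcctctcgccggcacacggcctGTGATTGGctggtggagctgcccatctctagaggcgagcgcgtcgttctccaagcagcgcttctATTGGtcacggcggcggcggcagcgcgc
Its matches were 2 CCAAT boxes on the opposite strand, beginning 89 and 28 bases before the start, and 1 GFI1 core overlapping the farther of them. It had no TATAAA, and the Cebpa window had no CCAAT box.

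Cebpb encodes the C/EBP protein that drives neutrophil output under infection and cytokine stress. It read 9.95, 9.69 and 9.95 on CTL, 9.52, 9.77 and 9.47 on IDH1wt, and 10.25, 9.65 and 9.49 on IDH1mut. The IDH1mut arrays overlapped both other groups, with replicate 1 the highest of the 9. Its log2 fold change was -0.07 ± 0.18 in IDH1mut against CTL (interval -0.46 to 0.32, adjusted p = 0.841) and -0.28 ± 0.18 in IDH1wt against CTL (interval -0.66 to 0.11, adjusted p = 0.473). A fall of Cebpb as large as that of Cebpa in IDH1mut lies outside its interval, whereas changes between -0.46 and 0.32 lie inside it.

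Cebpd, whose product is induced by cytokines and by inflammation, read 5.66, 5.52 and 5.89 on CTL, 5.37, 5.38 and 5.40 on IDH1wt, and 5.69, 5.67 and 5.38 on IDH1mut. The IDH1wt arrays lay below the CTL arrays without overlap, and the IDH1mut arrays overlapped both. The log2 fold changes were -0.31 ± 0.12 in IDH1wt against CTL (adjusted p = 0.22) and -0.11 ± 0.12 in IDH1mut against CTL (interval -0.37 to 0.15, adjusted p = 0.572).

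Spi1 encodes PU.1, the ETS factor on which all myeloid cells depend. Spi1 read 10.03, 9.95 and 10 on CTL, 9.95, 10.03 and 9.92 on IDH1wt, and 10.37, 10.22 and 10.16 on IDH1mut. Every IDH1mut array exceeded the 6 others, with a gap of 0.12 to the nearest. The log2 fold change was 0.26 ± 0.09 relative to CTL (interval 0.06 to 0.46, adjusted p = 0.0686) and 0.28 ± 0.09 relative to IDH1wt (adjusted p = 0.0652), so Spi1 did not pass. Against CTL it passed in 4 of the 10 alternatives other than leaving out arrays, among them a test of the brighter genes alone (adjusted p = 0.0236). CTL and IDH1wt differed by -0.02 ± 0.09 (interval -0.23 to 0.18, adjusted p = 0.922).

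Runx1 encodes the DNA-binding part of core binding factor, which blood stem cells need to arise. It read 7.05, 7.18 and 7.23 on CTL, 7.72, 7.43 and 7.39 on IDH1wt, and 6.93, 7.38 and 7.65 on IDH1mut. The IDH1wt arrays all lay above CTL, and the IDH1mut arrays reached from below the lowest CTL array to near the highest IDH1wt array. The log2 fold changes were 0.36 ± 0.16 in IDH1wt against CTL (adjusted p = 0.293) and 0.17 ± 0.16 in IDH1mut against CTL (interval -0.19 to 0.52, adjusted p = 0.543).

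**Figure D2:**
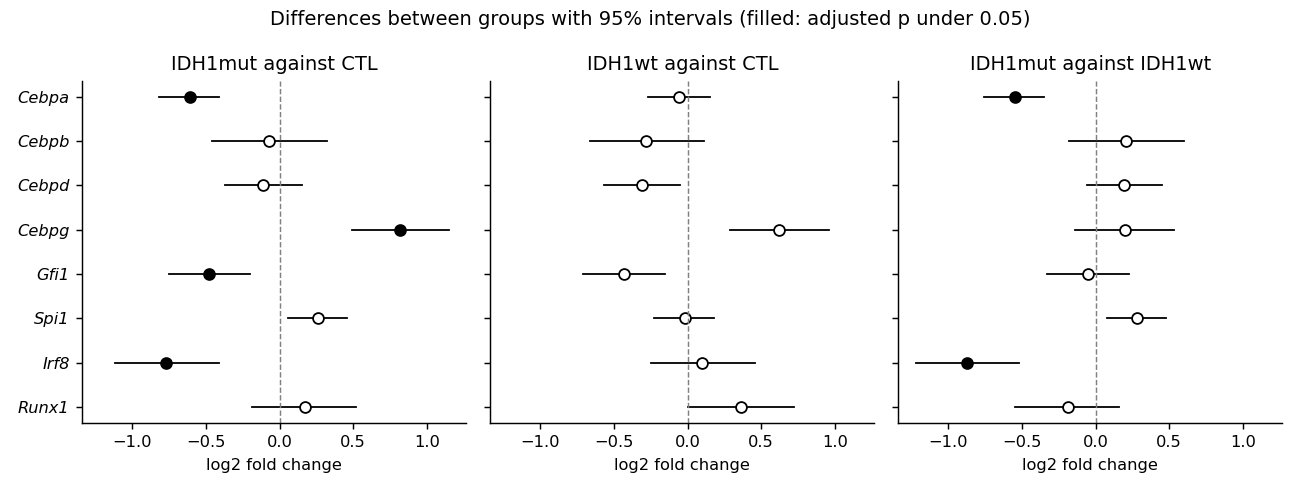
Log2 fold change (x axis) of each myeloid factor gene (y axis) in the 3 comparisons. Points are differences of group means over 3 arrays each, lines are moderated 95% intervals, and filled points passed at an adjusted p under 0.05. Filled points are Cebpa, Cebpg, Gfi1 and Irf8 against CTL in IDH1mut, none in IDH1wt, and Cebpa and Irf8 between the IDH1 vectors.

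The 4 members that changed in IDH1mut fell into pairs by their values in IDH1wt. Cebpa and Irf8 stood near CTL in IDH1wt, at -0.06 and 0.10, and differed between the vectors by the direct test. Gfi1 and Cebpg stood apart from CTL in IDH1wt too, at -0.43 and 0.62, and did not pass between the vectors. In IDH1wt against CTL 0 of 8 members rose and 0 fell, against 1.62% and 0.711% of all genes. At an unadjusted p under 0.05 the count was 4 of 8, against 17% of all genes. These 4 were Cebpd, Cebpg, Gfi1 and Runx1. Cebpg and Gfi1 passed in this comparison with an intensity trend and robust variances (adjusted p = 0.0364 and 0.033) and with array weights (adjusted p = 0.0145 and 0.0293). In IDH1mut against IDH1wt 2 of 8 members passed, against 13.3% of all genes. By direction 0 rose, against 6.54%, and 2 fell, against 6.78%, and at an unadjusted p under 0.05 the count was 3 of 8, against 26.7%.

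Groups of arrays were also compared by whether their values overlapped. The arrays of IDH1mut and CTL did not overlap for 5 of the 8 members, against 37.8% of all genes, with Spi1 added to the 4 that passed. Of these 2 were higher, against 16.3%, and 3 lower, against 21.5%. Those of IDH1wt and CTL did not overlap for 4 members, against 23.6% of all genes, with 2 higher (10.7%) and 2 lower (12.9%). Those of IDH1mut and IDH1wt did not overlap for 3 members, against 29.5% of all genes, with 1 higher (14.1%) and 2 lower (15.5%). The median size of the log2 fold change, regardless of sign, was 0.37 over the 8 members and 0.17 over all genes in IDH1mut against CTL, and 0.29 and 0.12 in IDH1wt against CTL. Between the IDH1 vectors it was 0.20 over the members and 0.15 over all genes.

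The distances of single arrays from their group means were compared next. IDH1mut replicate 1 was the highest or the lowest of its group for all 8 members, against 68.9% of all genes, being highest for Cebpa, Cebpb, Cebpd, Cebpg, Spi1 and Irf8 and lowest for Gfi1 and Runx1. Its median distance from the group mean was 0.211 over the members and 0.091 over all genes. On IDH1mut replicate 2 these distances were 0.135 and 0.081, and on replicate 3 they were 0.104 and 0.092. IDH1wt replicate 3 was also at an end of its group for all 8 members, against 58.7% of all genes, but its distance was 0.06 over the members and 0.074 over all genes. Without IDH1mut replicate 1 the log2 fold changes against CTL were -0.67 for Cebpa, -0.95 for Irf8, 0.74 for Cebpg and -0.35 for Gfi1, and Gfi1 alone of these lost its call. Runx1 then stood at 0.36 (adjusted p = 0.0898) and Cebpb at -0.30 (adjusted p = 0.152).

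The genes whose levels over the 9 arrays were most like those of each member were ranked by Pearson's r among 8598 brighter genes. The arrays share their group structure, so r is given as a measure of likeness only. Genes picked by r over these arrays share the member's group differences by selection. Their fold changes and calls below describe that likeness and are no separate result. Nearest to Cebpa were Polr2a (r = 0.989), which encodes the largest subunit of RNA polymerase II, Tcof1 (r = 0.987), which encodes the nucleolar protein treacle, and Deptor (r = 0.984), an mTOR inhibitor. In IDH1mut against CTL these fell by 0.66 ± 0.09, 0.83 ± 0.10 and 1.08 ± 0.14. Nearest to Irf8 were Npc2 (r = 0.992), a lysosomal cholesterol carrier, Pld4 (r = 0.99), a lysosomal exonuclease of dendritic cells, and Papss2 (r = 0.986), which makes the sulfate donor of the cell. Pld4 fell by 0.65 ± 0.16, though with an adjusted p of 0.0506 when CTL replicate 3 was left out, and Papss2 by 0.98 ± 0.16. Npc2 did not pass (-0.29 ± 0.10, adjusted p = 0.0629).

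For Cebpg the closest were Mfn1 (r = 0.974), a mitochondrial fusion protein, Tbc1d1 (r = 0.97) and the lysosomal transporter gene Slc46a3 (r = 0.958). Tbc1d1 had mean levels of 5.57 in CTL, 6.43 in IDH1wt and 6.57 in IDH1mut. It passed in both comparisons with CTL, with log2 fold changes of 0.86 ± 0.15 in IDH1wt (adjusted p = 0.0159) and 0.99 ± 0.15 in IDH1mut (adjusted p = 0.0011). The IDH1wt call of Tbc1d1 was lost on leaving out any 1 of 4 arrays, at adjusted p up to 0.0711. For Gfi1 they were Cdan1 (r = 0.962), Bcas1 (r = 0.951) and Zbtb40 (r = 0.947), of which Bcas1 fell in IDH1mut (-0.69 ± 0.13). For Spi1 they were Wipi2 (r = 0.982), Mapkapk5 (r = 0.976) and Gpsm3 (r = 0.971), with differences from CTL in IDH1mut of 0.25, 0.35 and 0.28. Mapkapk5, a kinase gene, passed (adjusted p = 0.0167), though not without any 1 of 3 arrays. For the remaining members the closest genes were Nrbf2 with Cebpb (r = 0.944), Pagr1a with Cebpd (r = 0.964) and Enpp4 with Runx1 (r = 0.948).

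**Figure D3:**
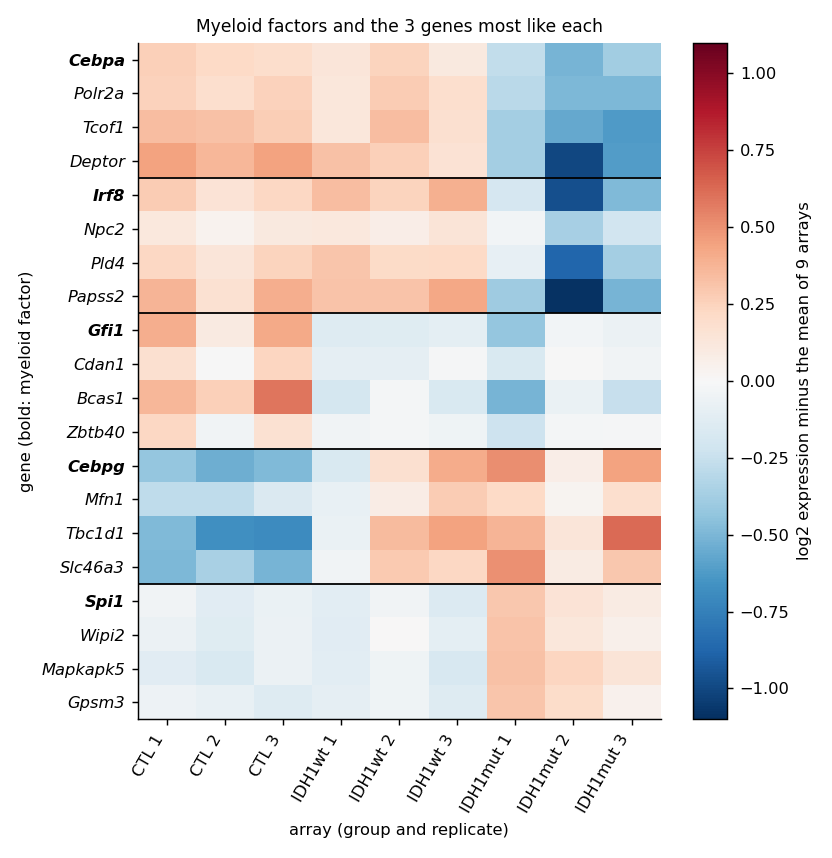
Deviation of log2 expression from each gene's mean over the 9 arrays (colour, log2 units) for Cebpa, Irf8, Gfi1, Cebpg and Spi1 (bold) and the 3 genes most like each, by array (x axis). The Cebpa and Irf8 blocks are low on the 3 IDH1mut arrays, the Cebpg block is low on the 3 CTL arrays, and IDH1mut replicate 2 is the lowest array for Irf8.

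Genes that act with or on these factors moved in both directions, as did genes at large. In IDH1mut against CTL 10.1% of all genes rose and 10.6% fell, the shares to set beside each list count below. In IDH1wt against CTL these shares were 1.62% and 0.711%, and between the IDH1 vectors 6.54% and 6.78%. Among relatives and regulators of the C/EBP proteins, 1 of 16 measured genes rose and 2 fell in IDH1mut against CTL, near the shares of all genes. The median log2 fold change was 0.01, against -0.04 over all genes. Cop1, the ubiquitin ligase that works with Tribbles proteins to degrade C/EBP-alpha, rose by 0.69 ± 0.09 (adjusted p = 0.000542), from 9.75 to 10.44. The Tribbles genes Trib1 (0.16 ± 0.10, adjusted p = 0.294) and Trib2 (0.35 ± 0.33, adjusted p = 0.521) did not pass. Kat2a, a histone acetyltransferase, fell by 0.69 ± 0.09, and Batf, a bZIP factor, by 0.33 ± 0.10, the latter with a call lost on leaving out any 1 of 7 arrays (adjusted p up to 0.139).

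Of 12 measured genes around RUNX1 and core binding factor, 2 rose and 4 fell in IDH1mut against CTL, with a median of -0.05. Cbfa2t3, a corepressor of the ETO family, fell by 0.85 ± 0.11, and Runx3, a paralog of Runx1, by 0.57 ± 0.10 (adjusted p = 0.00205). Prmt1, an arginine methyltransferase that modifies RUNX1, fell by 0.69 ± 0.14, and Tle4, a Groucho corepressor, rose by 0.75 ± 0.15. Cbfb, the partner subunit of every RUNX protein, did not pass (0.26 ± 0.09, adjusted p = 0.0656).

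GFI1 acts through the LSD1 demethylase and CoREST proteins. In that list 3 of 13 measured genes rose and 1 fell in IDH1mut against CTL, with a median of 0.01, and the count of 4 was 2 without CTL replicate 1 or 3 and 1 without IDH1mut replicate 3, in the unmoderated test or among the brighter genes alone. Gfi1b, the paralog used by red cell and platelet precursors, rose by 1.12 ± 0.21 (adjusted p = 0.00337), from 6.53 in CTL to 7.65 in IDH1mut, while Gfi1 fell. The erythroid marker genes rose in the same comparison, as given above. Kdm1a, which encodes LSD1, did not pass (-0.05 ± 0.09, adjusted p = 0.748).

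Among 14 ETS factors related to PU.1, 2 rose and 4 fell in IDH1mut against CTL, with a median of -0.12, and 2 in all passed without CTL replicate 1 or 3. Ets2 rose by 0.91 ± 0.14 and Elk3 fell by 0.52 ± 0.11. Ets1 was the only 1 of the 14 to pass in IDH1wt against CTL, where it fell by 0.77 ± 0.12 (adjusted p = 0.00717). Of 10 further genes listed with the IRF family, 4 rose and 3 fell in IDH1mut against CTL, with a median of -0.14. The 4 that rose were IRF genes. The 3 that fell, Irf2bp1, Irf2bp2 and Irf2bpl, encode IRF2-binding corepressors and are not IRF genes, so the median mixes both kinds. Irf3 (0.61 ± 0.14), Irf7 (0.57 ± 0.13), Irf1 (0.39 ± 0.09) and Irf9 (0.36 ± 0.09), which serve the interferon response, rose while Irf8 fell, and Irf9 did not pass once CTL replicate 1 was left out (adjusted p = 0.0519). The corepressor genes Irf2bpl and Irf2bp2 fell by 0.55 ± 0.11 and 0.49 ± 0.09. Irf4, the closest relative of Irf8, did not pass against CTL (-0.35 ± 0.21, adjusted p = 0.281). It fell by 0.81 ± 0.21 between the IDH1 vectors (adjusted p = 0.0251), though not without any 1 of 4 arrays (adjusted p up to 0.0877).

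Factors of other lineages were set beside the members. Of 15 genes for erythroid, megakaryocyte and mast cell factors, 6 rose and 3 fell in IDH1mut against CTL, with a median of 0.25, and 5 in all passed without CTL replicate 3. Gata1, the master factor of red cells and an antagonist of PU.1, rose by 1.19 ± 0.30 (adjusted p = 0.0158, with a call lost without any 1 of 3 arrays), and Tal1 by 0.78 ± 0.13. Klf1 rose by 1.30 ± 0.35, with a call lost without any 1 of 6 arrays (adjusted p up to 0.0759). Tal1 passed in IDH1wt too (0.72 ± 0.13, adjusted p = 0.0179), though not without any 1 of 5 arrays. Of 19 monocyte and dendritic cell factors 4 rose and 2 fell in IDH1mut. Id2 rose by 2.38 ± 0.21. Egr1 fell by 2.24 ± 0.21 (adjusted p = 5.71e-05), and Tcf4, the E protein of plasmacytoid dendritic cells, by 0.85 ± 0.15. Mean levels of Egr1 were 8.87 in CTL, 6.66 in IDH1wt and 6.62 in IDH1mut. Its fall in IDH1wt against CTL passed too, whichever single array was left out. Klf4, a monocyte factor, stood at -0.63 ± 0.21 and did not pass (adjusted p = 0.0528). Of 18 lymphoid factors 1 rose and 2 fell, near the shares of all genes, led by Satb1 (1.06 ± 0.15).

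**Figure D4:**
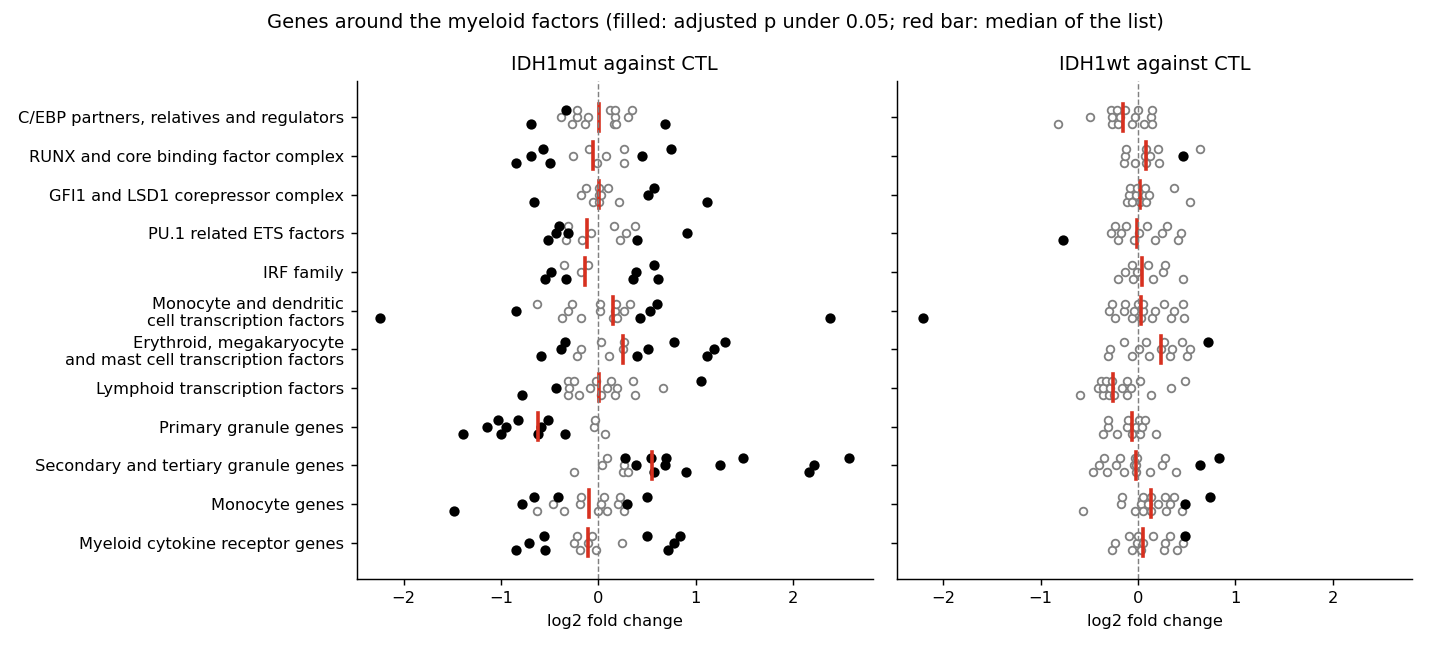
Log2 fold change (x axis) of single genes in 12 lists around the myeloid factors (y axis), in IDH1mut against CTL (left) and IDH1wt against CTL (right). Filled points passed at an adjusted p under 0.05, open points did not, and red bars are list medians. The primary granule genes lie mostly below 0 and the secondary and tertiary granule genes mostly above 0 in IDH1mut, with medians of -0.62 and 0.56, and both medians are near 0 in IDH1wt.

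Genes that these factors are known to switch on differed by the stage at which they are used. Primary granule genes are made in promyelocytes under C/EBP-alpha, PU.1 and RUNX1, and 10 of 13 fell and 0 rose in IDH1mut against CTL, with a median of -0.62. Mpo (myeloperoxidase) fell by 0.62 ± 0.08, Elane (neutrophil elastase) by 1.14 ± 0.11 and Cst7 by 1.39 ± 0.11. Secondary and tertiary granule genes are made later, and 12 of 18 rose and 0 fell, with a median of 0.56. Chil1 rose by 2.58 ± 0.10, Olfm4 by 2.22 ± 0.15 and Ltf (lactoferrin) by 0.70 ± 0.09. In IDH1wt against CTL the counts were 0 of 13 and 2 of 18, and the latter calls, of Olfm4 and Mmp8, were both lost on leaving out CTL replicate 1 or 3 or IDH1wt replicate 2 or 3. With array weights 6 of the 18 passed in IDH1wt. In IDH1mut against CTL Cebpa fell, as did most of the primary granule list, whereas Spi1 (0.26 ± 0.09) and Runx1 (0.17 ± 0.16) did not pass. A link between Cebpa and this list was not tested. C/EBP-epsilon, the usual activator of secondary granules, was not analysed here.

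Monocyte genes, on which PU.1 and IRF8 act, rose in 2 of 18 and fell in 4 in IDH1mut against CTL, with a median of -0.09. The mean over the list was 9.44 to 9.51 on CTL, 9.59 to 9.68 on IDH1wt and 9.08 to 9.54 on IDH1mut arrays. IDH1mut replicate 1, the array with the highest Irf8 of its group, was also the highest of its group for this list, and replicate 2 was the lowest for both. That order was not particular to Irf8. Cebpa, which fell, and Cebpg, which rose, had it too, and replicate 1 was the highest of its group for 6 of the 8 members. A link between Irf8 and this list was not tested. Against CTL most of the list, 12 of 18, did not pass. Of the 4 that fell, Cd14, a coreceptor for lipopolysaccharide, fell by 1.48 ± 0.18 and Ms4a6c by 0.78 ± 0.14. In that comparison 3 genes in all passed without IDH1mut replicate 2. In IDH1mut against IDH1wt 8 of 18 fell and 1 rose, with a median of -0.38. That count of 9 was 2 without IDH1mut replicate 2, 3 without IDH1mut replicate 3 or IDH1wt replicate 3, 4 without IDH1wt replicate 2, 5 with only the 6 arrays compared in the fit and 1 in the unmoderated test.

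Cytokine receptor genes, several of them direct targets of C/EBP-alpha and PU.1, rose in 4 of 15 and fell in 4 in IDH1mut against CTL, with a median of -0.11. Csf3r, the receptor for G-CSF, rose by 0.78 ± 0.12 (adjusted p = 0.000972), from 10.40 in CTL and 10.67 in IDH1wt to 11.18 in IDH1mut. Csf1r, the receptor for M-CSF, did not pass (-0.19 ± 0.14, adjusted p = 0.394). Between the IDH1 vectors it fell by 0.47 ± 0.14 (adjusted p = 0.0434), a call that 7 of the 9 arrays could each undo when left out (adjusted p up to 0.153). Il3ra fell by 0.85 ± 0.13, Il6st by 0.71 ± 0.16, and Epor, the erythropoietin receptor, rose by 0.84 ± 0.17. Csf2ra rose in both comparisons with the shared CTL arrays, by 0.50 ± 0.09 in IDH1mut and 0.48 ± 0.09 in IDH1wt, the latter with a call lost on leaving out any 1 of 5 arrays (adjusted p up to 0.0742).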

How the data were processed

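Total RNA (3 µg) of 9 sorted marrow samples was labelled for Affymetrix arrays, per the labels' protocols. The deposited log2 values per probe set had been made with RMA, per the submitters' processing notes, which name nothing else. Of 20877 probe sets, 17815 carried 1 gene symbol, 244 several and 2818 none in a platform annotation of 2016. The number of arrays limits the precision.

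A gene was represented by its probe set of highest mean. Group means were estimated over all arrays (limma 3.58.1, R 4.3.3, moderated, two-sided), and p-values were adjusted by Benjamini-Hochberg over 17731 genes at 0.05. The script was tested on simulated data. Promoters came from RefSeq (GRCm38.p6), which matched 6 of 8 members by symbol, not Cebpd and Spi1.

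Members, lists and motifs were chosen with earlier results of these data known. The rule named all members, the 3 genes most like each among genes at or above the median gene mean (clone-like symbols left out), and up to 4 passing genes per list, largest changes first. Irf1, Irf9, Il6st, Mpo, Ltf and the list genes that did not pass were added after their values were seen. Alternatives covered probe set choice, brightness, normalisation, variance model, array weights, replicate block and leaving out each array. The labels do not say whether equal replicate numbers pair arrays. Deviations of same-numbered arrays correlated at -0.09 to 0.03, so no shared shift was seen, which cannot show that samples were unpaired.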

Additional observations from a re-analysis of the deposited data

How the results depend on the processing

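Over the 8 members and 3 comparisons, calls in IDH1mut against CTL numbered 4 in the main analysis, 3 to 4 on leaving out single arrays and 4 or 5 under the 10 other alternatives. In the unmoderated test the 4 included Spi1 in place of Gfi1. In IDH1mut against IDH1wt they numbered 2, then 2 to 2, and 2 or 3. In IDH1wt against CTL they numbered 0, then 0 to 1, with 1 after subtracting array medians and 2 with an intensity trend and robust variances or with array weights. These were calls of Cebpg and Gfi1, and the cause was not tested. For genes changed, IDH1wt against CTL, the count was 414 and ran from 58 (unmoderated test) to 1226 (array weights); 145 passed without CTL replicate 3 or IDH1wt replicate 3, 132 without CTL replicate 1 and 211 without IDH1wt replicate 2, and 717 with an intensity trend and robust variances. For genes changed, IDH1mut against CTL, 3663 became 2370 without CTL replicate 1, and for genes changed, IDH1mut against IDH1wt, 2363 became 1475 without IDH1wt replicate 3 and 1528 without IDH1mut replicate 2.

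Differences near 0 changed sign in a few settings. Cebpb in IDH1mut against CTL ran from -0.30 to 0.09 over arrays left out, and was 0.01 and 0.09 without IDH1mut replicates 2 and 3. In IDH1mut against IDH1wt the ranges were -0.02 to 0.36 for Cebpb, -0.12 to 0.08 for Gfi1 and -0.36 to 0 for Runx1, and without IDH1mut replicate 1 the values were -0.02, 0.08 and 0. Spi1 in IDH1wt against CTL was 0.02 after a repeated quantile normalisation. With the replicate number as a block the members called were 4, 0 and 2, as without it. Whether equal numbers pair arrays is not stated in the labels. The brighter-gene setting gave no value for Cebpg, whose mean was below the median gene mean. Folds of dim genes such as Cebpg may be understated, and whether its signal lay above background was not tested.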
